A study of Mus musculus with 22 samples.

Results

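Pulldowns of EGFP-tagged ribosomes from striatal neurons expressing the dopamine receptor Drd1 were divided by whether they held cortical mRNA. Of the 11 pulldown (IP) libraries, 4 reached at least 10 CPM (counts scaled to a library total of 1e6) for Slc17a7, the vesicular glutamate transporter VGLUT1 of cortical excitatory neurons, and 7 did not. The libraries with cortical mRNA came from wild types 1 and 12 and from Fmr1 mutants 3 and 9, and those without it from wild types 4, 13, 14 and 20 and from mutants 2, 10 and 11. Each animal also gave an input library from the same cleared lysate, so 22 libraries were used in all.

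All animals carried EGFP fused to the ribosomal protein Rpl10a in Drd1 neurons, and the striata were lysed in cycloheximide before the pulldown. The labels give 6 wild-type animals and 5 mutants, which they call a model of fragile X syndrome, and they place all pulldowns and sequencing in 1 batch. They do not give strain, age, litter or the transgene line, so the p-values below measure the spread between these animals only.

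The EGFP-Rpl10a fusion is built into ribosomes of the cells that make it, and antibodies against EGFP then bring down the mRNAs on those ribosomes. In the striatum, Drd1 marks the projection neurons of the direct pathway, which release GABA. Drd1 is also known from the cerebral cortex, mainly from neurons of the deep layers, while VGLUT1 and the transcription factor Tbr1 belong to cortical glutamatergic neurons and not to striatal projection neurons.

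Total counts were between 9.38 and 82.4 M (1e6) per IP library and between 25.2 and 43.3 M per input library. Libraries with and without cortical mRNA did not differ in depth beyond their spread (2-sided exact permutation test, 330 divisions of the animals, p = 0.761 for IP and p = 0.703 for input, smallest possible p 0.00303). Fmr1 matched the genotype labels, at 70.6 to 107.95 CPM in wild-type IP libraries and 8.15 to 11.5 CPM in mutant IP libraries. The input of wild-type animal 20 stood apart in Ttr, a choroid plexus mRNA, at 2068 CPM, against at most 36.6 CPM in the other input libraries, and its IP library held 24.4 CPM against at most 1.10 CPM.

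Slc17a7 chose the groups, so its IP values are a description. It stood at 19.9 CPM of the library total in the IP of wild-type animal 1, 80.2 CPM in wild-type animal 12, 39.5 CPM in mutant animal 3 and 69.6 CPM in mutant animal 9. In the other 7 IP libraries it ranged from 0.0541 to 1.48 CPM, that is 1 to 44 reads. The values nearest the threshold of 10 CPM were therefore 19.9 CPM inside it and 1.48 CPM outside it. The levels that follow are CPM scaled over all 22 libraries by the trimmed mean of M-values (TMM). Where 4 values are listed for the animals with cortical mRNA, they stand in the order wild type 1, wild type 12, mutant 3 and mutant 9.

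Tbr1, a T-box transcription factor of deep-layer cortical neurons, was at 20.9 CPM in the IP of wild-type animal 1, 65.1 CPM in wild-type animal 12, 31.7 CPM in mutant animal 3 and 61.4 CPM in mutant animal 9. In the IP libraries without cortical mRNA its lowest, median and highest levels were 0, 0.732 and 1.87 CPM. The groups did not overlap, and wild-type animal 1 was the lowest of the 4 for both markers. In these bulk samples, more cortical cells and more mRNA per cortical cell cannot be told apart.

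**Figure D1:**
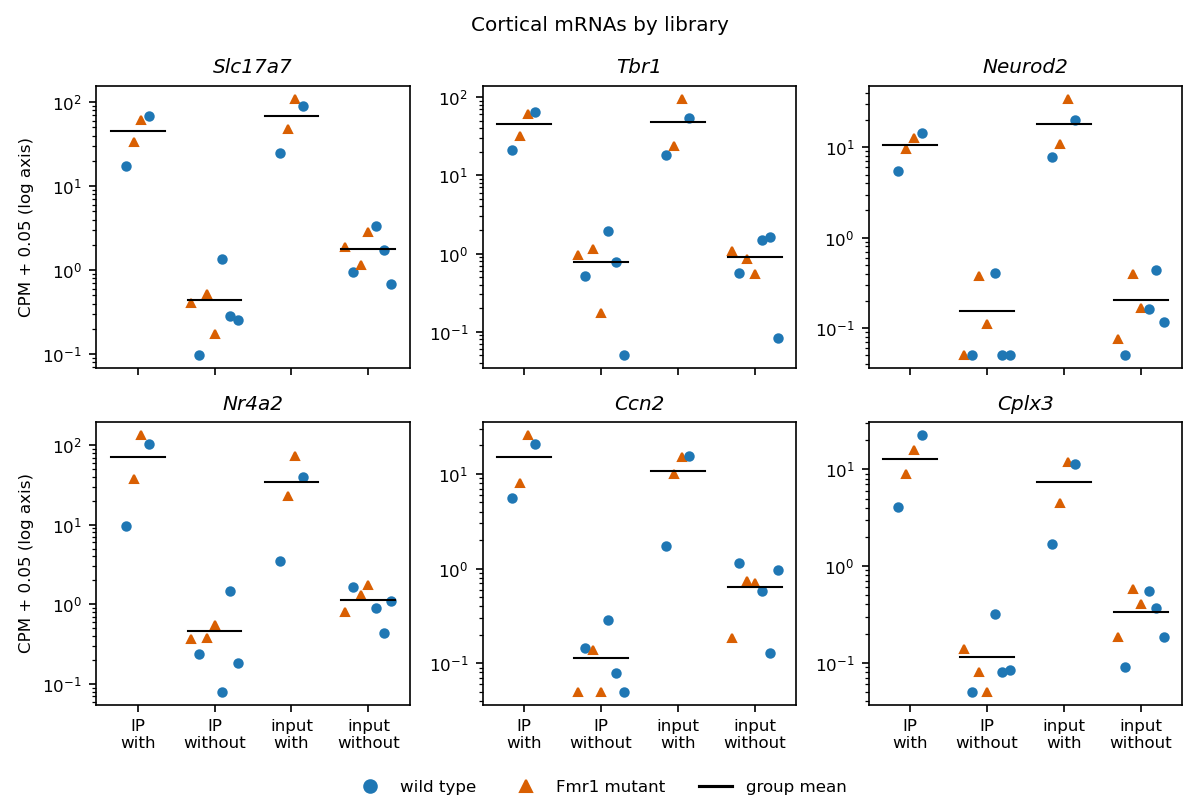
Levels of 6 cortical mRNAs in each library, as CPM plus 0.05 on a log axis, for IP and input libraries of the animals with and without cortical mRNA. Circles are wild type, triangles are Fmr1 mutant and bars are group means. Slc17a7 in IP chose the groups. In IP, every library with cortical mRNA lies above every library without it for all 6 genes. The 6 are among the largest IP differences, which were limited to genes without overlap, so this separation is not a result.

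Across the 14916 genes measured in IP, 211 (1.41%) were higher in all 4 libraries with cortical mRNA than in all 7 others by a log2 fold change of at least 1, and 5 (0.0335%) were lower by that rule. At any fold, 299 (2%) were higher and 60 (0.402%) lower. Because IP values made the division, these counts are a description with no test. Restricted to genes with a mean of at least 5 CPM in the higher group, 178 were higher without overlap at any fold and 53 were lower.

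Among the 15 largest differences were transcription factors of cortical excitatory neurons. The log2 fold change in IP was 6.53 (SE 0.79) for Neurod2 and 6.20 (SE 0.95) for Neurod6, both basic helix-loop-helix factors. Neurod2 was at 5.46 to 14.2 CPM in the IP libraries with cortical mRNA, against at most 0.357 CPM in the others.

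Among named genes with a mean of at least 5 CPM, Ccn2, Cplx3 and Nr4a2 differed most. They are markers of layer 6b, the deepest cortical layer, or of the claustrum. Not all listed markers moved with them. Higher in IP without overlap, by a log2 fold change of at least 1, were 2 of 4 measured layer 6b markers. Of 4 measured claustrum and Car3 neuron markers it was 1, and of all genes 1.41%. Ccn2, a secreted matrix protein that marks layer 6b, differed by a log2 fold change of 7.82 (SE 0.69). Cplx3, a complexin that regulates vesicle fusion and is found in layer 6b, differed by 7.41 (SE 0.60). Nr4a2, a nuclear receptor made in claustrum and layer 6b, differed by 7.35 (SE 0.91). Ccn2 was at 5.46, 20.8, 7.99 and 25.6 CPM in the IP libraries with cortical mRNA, and at 0 to 0.238 CPM in the other IP libraries. Of the exon length of Ccn2, 23.2% overlaps another gene, and since the library kit does not mark strand, reads there cannot be assigned to either gene.

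Genes of secreted signals, receptors and modifying enzymes made up most of the rest of the 15. Bmp3, a growth factor of the BMP family, differed by a log2 fold change of 5.74 (SE 0.74), and Rxfp1, a relaxin receptor, by 6.52 (SE 0.97). Hs3st2, a heparan sulfate sulfotransferase, differed by 5.36 (SE 0.60) and Nxph3, a neurexophilin that binds neurexins, by 4.89 (SE 0.71). Nrn1, the neurite growth factor neuritin, differed by 4.86 (SE 0.57), Vxn by 5.04 (SE 0.43) and Tmem163, a zinc-binding membrane protein, by 4.94 (SE 1.31). The growth factor Bdnf and the neuropeptide Cck were also higher without overlap, Bdnf at 1.84 to 4.90 CPM against at most 0.372 CPM and Cck at 13.4 to 71.4 CPM against at most 7.57 CPM. With a log2 fold change of at least 1 as well, this held for 3 of 6 measured peptides and growth factors of cortical neurons. The share over all genes was 1.41%.

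Several of these log2 fold changes moved by more than 1.5-fold on the linear scale when 1 animal was left out, and each stayed above 0. Without wild-type animal 13, Rxfp1 was at 8.18, Bmp3 at 7.002, Ccn2 at 8.74, Cplx3 at 8.22, Neurod2 at 7.41, Hs3st2 at 6.31 and Slc17a7 at 7.41. Neurod2 was at 7.23 without mutant animal 10, Neurod6 at 7.61 without mutant animal 11 and Nr4a2 at 8.26 without wild-type animal 14. Leaving out wild-type animal 12 gave 6.54 for Nr4a2, 6.77 for Cplx3, 5.91 for Rxfp1 and 5.76 for Tmem163, and leaving out mutant animal 9 gave 5.87 for Rxfp1. Tmem163 was at 6.03 without wild-type animal 1 and 4.33 without mutant animal 2, and Nxph3 at 5.65 without wild-type animal 1. With the Slc17a7 threshold at 20 CPM, Neurod6 was at 4.27, Neurod2 at 5.19, Cplx3 at 6.10, Ccn2 at 6.32, Nr4a2 at 6.63, Slc17a7 at 5.75, Rxfp1 at 5.82, Tbr1 at 5.01, Vxn at 4.41 and Tmem163 at 5.89.

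The mRNAs lower in IP differed far less. With a mean of at least 5 CPM in the higher group, none of the 53 passed a log2 fold change of -1, and the largest value was -0.76 (SE 0.27) for Ppt2, a lysosomal thioesterase. Ppt2 was at 1.64 to 4.84 CPM in the 4 libraries with cortical mRNA and 4.88 to 7.19 CPM in the 7 without, but 36.6% of its exon length overlaps another gene. Kcna5, a voltage-gated potassium channel, followed at -0.65 (SE 0.23). The 5 genes past a log2 fold change of -1 were all under that mean level and, named after their values were seen, included Asf1b, Itga2b and Vdr and 2 predicted genes.

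The input libraries did not choose the animals, but they come from the same lysates, so they measure the same tissue a second time. In input, Slc17a7 was at 24.9 CPM in wild-type animal 1, 91.0 CPM in wild-type animal 12, 47.7 CPM in mutant animal 3 and 109.7 CPM in mutant animal 9. In the other 7 inputs its lowest, median and highest levels were 0.639, 1.69 and 3.28 CPM. The 2 groups did not overlap, and the log2 fold change was 5.28 (SE 0.52, edgeR adjusted p = 0.00116). Tbr1 in input rose by 5.83 (SE 0.67, edgeR adjusted p = 0.00304), from 0.0336 to 1.57 CPM in the animals without cortical mRNA to 18.1 to 94.96 CPM in those with it.

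Over the 17033 genes tested in input, edgeR's quasi-likelihood test called 282 genes higher (1.66%) and 10 lower (0.0587%) in the animals with cortical mRNA. The 10 that fell included Pde7b, a phosphodiesterase of striatal neurons, at -0.43 (edgeR adjusted p = 0.0163), and 3 genes of motile cilia, Pifo (-1.40, adjusted p = 0.0195), Rsph4a (-0.90, adjusted p = 0.0418) and Cfap126 (-1.41, adjusted p = 0.0482), all named after their values were seen. Neurod2 rose by 6.997 (SE 0.58, adjusted p = 5.53e-05), Cplx3 by 4.74 (SE 0.54, adjusted p = 8.93e-05), Nr4a2 by 4.93 (SE 0.69, adjusted p = 0.00864) and Ccn2 by 4.23 (SE 0.66, adjusted p = 0.00618). Without wild-type animal 12 the input calls fell from 292 to 134, and without wild-type animal 1 they numbered 435. Without mutant animal 9, 10 or 11 they numbered 143, 186 or 191.

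The share of ribosomal RNA of the mitochondria, a sign of library makeup, did not differ beyond its spread between the inputs of both groups, at 32.6% ± 4.68 (SD, n = 4) and 35.5% ± 9.27 (SD, n = 7) by a 2-sided exact permutation test (p = 0.624). It ran highest, at 53.2%, in the input of mutant animal 10.

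The genes higher in IP were then set against those higher in input by the same rule of non-overlap and a log2 fold change of at least 1, which 139 genes met in input (0.816%). The lists shared 73 genes, which are 34.6% of the IP list and 52.5% of the input list. Of the 211 IP genes, 209 were also tested in input. There 197 had a positive input log2 fold change, while the median over all genes tested in input was -0.01. Both assays used the same lysates and the same division of animals. Since IP values chose both the groups and these genes, the size of their change in IP is not compared with that in input.

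**Figure D2:**
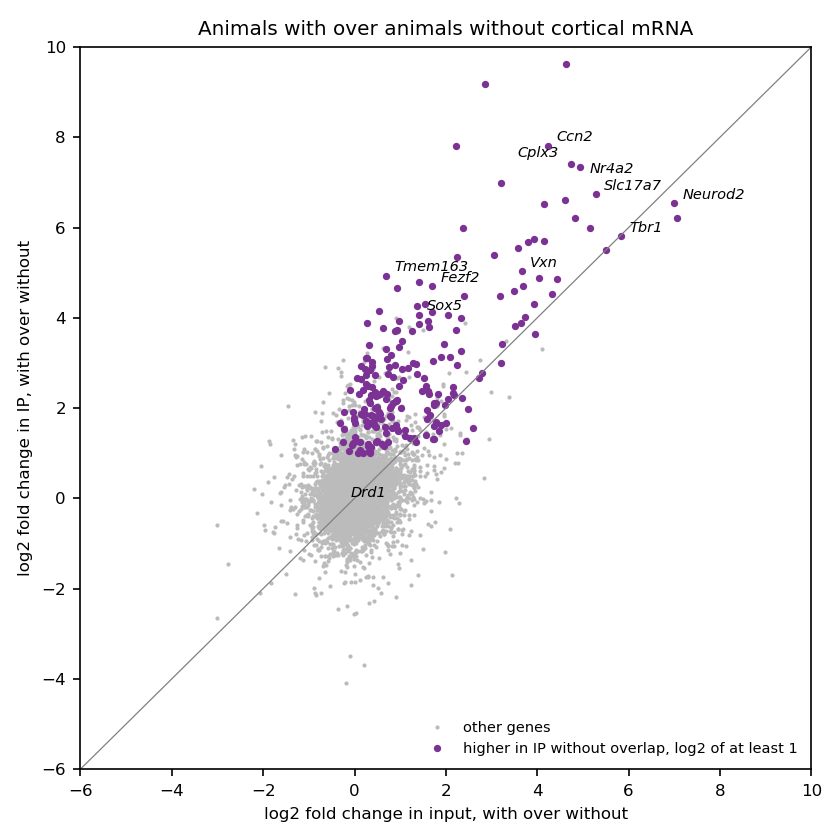
Log2 fold change of animals with over animals without cortical mRNA in input (x axis) and IP (y axis), with 1 point per gene and the line of equal change. Purple marks genes higher in IP without overlap and by a log2 fold change of at least 1. Purple genes were chosen by their IP values, so their place above the line is not a result. Ccn2 is at 7.82 in IP and 4.23 in input, and Drd1 sits near 0 on both axes.

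Some of these mRNAs were also measured in the inputs without cortical mRNA. Fezf2, the transcription factor of layer 5 neurons that project out of the cortex, was at 1.82 to 6.23 CPM in the 7 inputs without cortical mRNA but at 0 to 0.387 CPM in their IP libraries. With cortical mRNA it was at 8.58 to 15.02 CPM in input and 4.21 to 7.12 CPM in IP. Its log2 fold change was 4.70 (SE 0.58) in IP and 1.70 (SE 0.26, edgeR adjusted p = 0.0012) in input. IP values chose the groups, so these changes are not compared in size. Tmem163 had 0 reads in 4 of the 7 IP libraries without cortical mRNA, 1 read in mutant animal 10, and 40 and 31 reads in wild-type animals 14 and 20, or 1.17 and 1.05 CPM. The lowest IP library with cortical mRNA held 1.64 CPM, and the 7 inputs without it held 2.38 to 7.32 CPM. Its change in input was 0.68 (SE 0.27, edgeR adjusted p = 0.314).

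Other genes are given as examples only. They were chosen after their values were seen, so their likeness to Fezf2 and Tmem163 is not a result. Sox5, a transcription factor of deep-layer neurons, was at 0.468 to 1.40 CPM in IP without and 4.24 to 21.3 CPM in IP with cortical mRNA, while input changed by 1.41 (SE 0.29, edgeR adjusted p = 0.0200). Id2, an inhibitor of helix-loop-helix factors, was at 1.07 to 2.15 CPM against 8.10 to 22.6 CPM in IP, while input changed by 0.70 (SE 0.12, edgeR adjusted p = 0.00327). Chrm2, a muscarinic acetylcholine receptor, was at 0.149 to 0.794 CPM against 1.92 to 9.83 CPM in IP. Its input ranges were 5.41 to 11.4 CPM without and 8.71 to 12.4 CPM with cortical mRNA, and its input change was 0.28 (SE 0.19, edgeR adjusted p = 0.680).

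Which cortical mRNAs of the lysate reached the pulldown, and how strongly, was read from IP over input in the 4 animals with cortical mRNA. This contrast between assays was fitted over all 22 libraries and is not the one that divided the animals. edgeR called 3067 of 17916 genes higher in IP (17.1%) and 4020 lower (22.4%), and with the animal as a block 3424 (19.1%) and 4217 (23.5%). In the 7 animals without cortical mRNA it called 4272 higher (23.8%) and 5678 lower (31.7%).

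The pulldown separated striatal cell types in the animals with cortical mRNA. Drd1 was at 472, 602, 616 and 545 CPM in IP, against 218, 160, 186 and 142 CPM in their inputs. It was higher in IP by a log2 fold change of 1.63 (SE 0.12, edgeR adjusted p = 1.67e-11), and all 10 listed markers of D1 neurons passed the test in that direction with a median of 1.58. Drd2, the dopamine receptor of the other class of projection neuron, was lower by -3.34 (SE 0.16, edgeR adjusted p = 6.34e-15), as were all 6 measured D2 markers with a median of -3.36. The median over all genes tested was -0.13. The lists of astrocyte, oligodendrocyte, oligodendrocyte precursor and microglia markers had medians between -3.35 and -4.88.

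Cortical mRNAs of the lysate were defined from input, as genes whose 4 inputs with cortical mRNA all lay above the other 7, by a log2 fold change of at least 2 and with a mean of at least 5 CPM. This gave 38 genes (0.223% of those tested), of which 3 were predicted genes without a name. Of the 37 measured in the IP comparison, 33 were also higher there without overlap by a log2 fold change of at least 1. The share over all genes measured in IP was 1.41%. Both assays share the lysates and a division made on IP values, so the 33 are a description. The same input values both chose these genes and form the denominator of IP over input, so genes with a high input value by chance have a low ratio.

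Most of the 38 lay between the D1 markers and the markers of untagged cells. Their median IP over input was -0.68 on the log2 scale in the animals with cortical mRNA, with 6 genes above 0 and 32 below, from -4.35 to 1.05. In the animals without cortical mRNA the median was -1.31 and that of all genes -0.12. Read numbers there differed widely among the 38, for example 17 for Cplx3 and 4844 for Slc8a1 over the 7 IP libraries. edgeR called 6 of the 38 lower in IP and 0 higher, against 22.4% lower and 17.1% higher over all genes tested. At an unadjusted p under 0.05 there were 10 lower and 0 higher, and DESeq2 called 8 lower and 0 higher. With the animal as a block edgeR called 15 lower and 2 higher, against 23.5% lower and 19.1% higher over all genes.

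**Figure D3:**
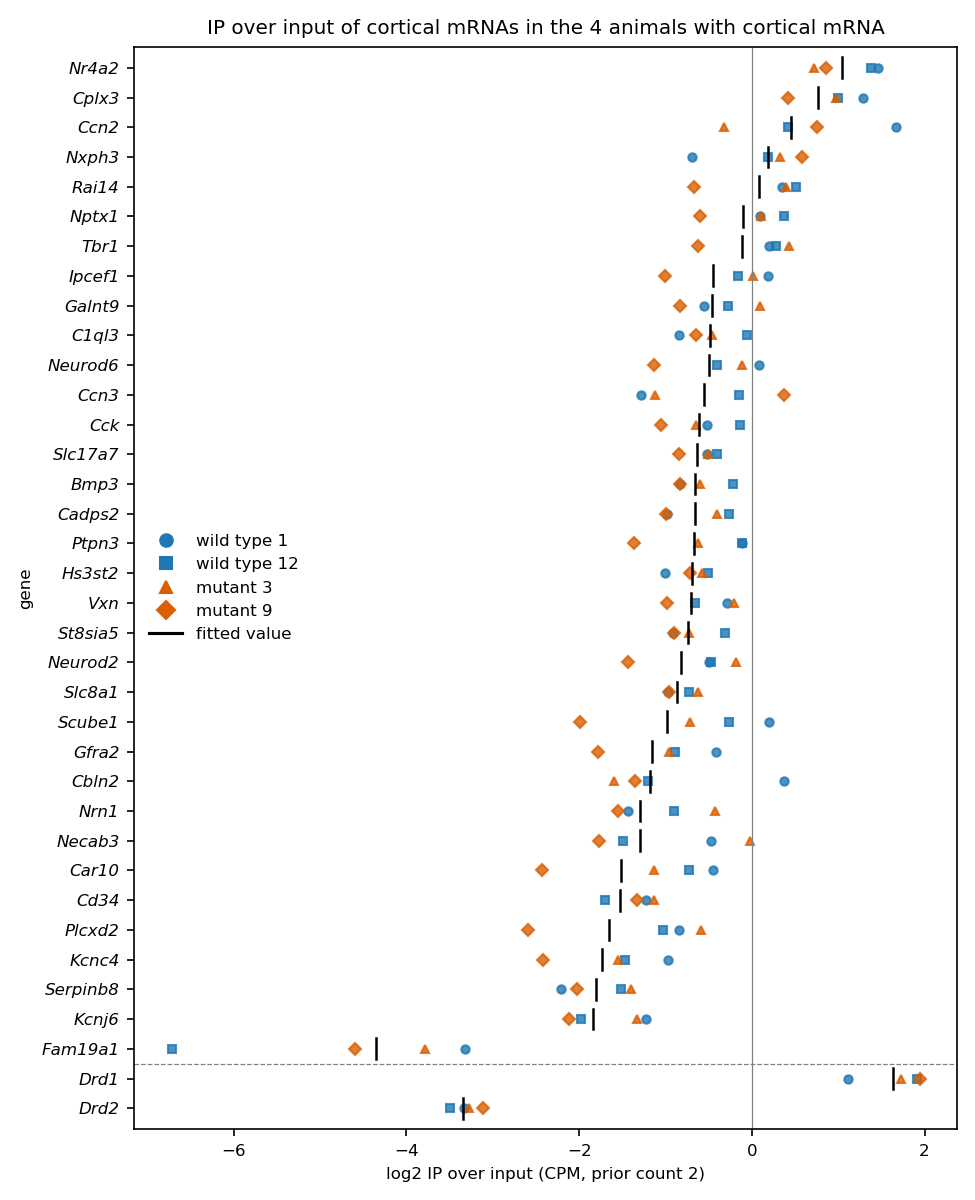
Log2 IP over input of cortical genes set by input, 1 row per gene, in each of the 4 animals with cortical mRNA, with Drd1 and Drd2 below the dashed line. Symbols are animals and black bars are the fitted values. Nr4a2 and Cplx3 lie above 0 in all 4 animals, and Fam19a1 is the lowest of the cortical genes in each.

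Nr4a2 had the highest ratio. It is on chromosome 2 at 57106830 to 57124003 (mm10, minus strand) and none of its exons overlap another gene. Its IP level was 9.61 CPM in wild-type animal 1, 103 CPM in wild-type animal 12, 38.0 CPM in mutant animal 3 and 134 CPM in mutant animal 9, and the inputs held 3.45, 39.5, 23.1 and 73.4 CPM. IP was thus 2.78, 2.60, 1.65 and 1.82 times the input, higher in 4 of 4 animals. The log2 fold change was 1.05 (SE 0.77, edgeR adjusted p = 0.307), and 1.07 (SE 0.37, adjusted p = 0.0334) with the animal as a block. With no filter on low counts edgeR gave 1.10 with an adjusted p of 1.44e-08, and over the other alternatives without a block its adjusted p was between 0.206 and 0.546.

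Cplx3 came next. It lies on chromosome 9 at 57599992 to 57606281 (mm10, minus strand). It was at 4.08, 22.6, 8.90 and 16.0 CPM in IP, and at 1.63, 11.3, 4.49 and 11.9 CPM in their inputs. All 4 animals were higher in IP, by a log2 fold change of 0.77 (SE 0.61, edgeR adjusted p = 0.341), and 0.89 (SE 0.35, adjusted p = 0.0472) with the block.

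Ccn2, Nxph3 and Rai14 also had a fitted value above 0, none of them called. Ccn2 was at 0.45 (SE 0.69, edgeR adjusted p = 0.645), with 3 of 4 animals above 0. Nxph3 was at 0.19 and Rai14, an actin-binding protein, at 0.08. Rai14 turned to -0.03 without mutant animal 3 and to -0.10 without wild-type animal 12. Nptx1, a neuronal pentraxin, and Tbr1 followed at -0.10 and -0.11, and both were above 0 in 3 animals and below 0 in mutant animal 9. Nptx1 was also at 5.85 to 16.2 CPM in the IP libraries without cortical mRNA, which overlapped those with it (lowest 15.6 CPM). In the animals without cortical mRNA its IP over input was 0.75 (SE 0.32, edgeR adjusted p = 0.0503).

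The general marker Slc17a7 sat near the middle of the list. Its IP was 0.697, 0.755, 0.703 and 0.555 times the input. The fitted value was -0.64 (SE 0.55), and -0.61 (SE 0.19) with the block. These values describe the animals and no p-value is given, since IP levels of Slc17a7 chose them. The counts of genes above and below Slc17a7 are descriptions for the same reason. Of the other 37 genes, 7 had a higher IP over input than Slc17a7 in 4 of 4 animals, among them Nr4a2, Cplx3, Ccn2, Tbr1, Nptx1 and Rai14. Another 7 had a lower one in 4 of 4, namely Fam19a1, Kcnc4, Kcnj6, Serpinb8, Cd34, Plcxd2 and Slc8a1.

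Among genes of cortical excitatory neurons near Slc17a7, Neurod6 was at -0.50 (SE 0.77), Cck at -0.61 (SE 0.52), Bmp3 at -0.66 (SE 0.85), Hs3st2 at -0.69 (SE 0.49), Vxn at -0.71 (SE 0.43) and Neurod2 at -0.82 (SE 0.66), none called by edgeR. Neurod2 was below 0 in 4 of 4 animals.

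Fam19a1, which encodes a secreted chemokine-like protein, was the lowest of the 38 in each of the 4 animals. It spans chromosome 6 from 96113154 to 96657198 (mm10, plus strand). The inputs held 159, 220, 184 and 453 reads, or 6.31, 6.65, 6.21 and 17.4 CPM. The IP libraries of the same animals held 54, 0, 9 and 18 reads, or at most 0.658 CPM. It was lower in IP by a log2 fold change of -4.35 (SE 0.61, edgeR adjusted p = 2.06e-06). In the animals without cortical mRNA its inputs were at 0.572 to 1.51 CPM, and of their IP libraries only that of wild-type animal 20 held reads, 2 in number. IP over input there was -6.44 (SE 0.69, edgeR adjusted p = 9.18e-09).

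A pair of ion transport genes were also called lower in IP. Kcnc4, a voltage-gated potassium channel, was at 1.96 to 3.01 CPM in IP and 3.89 to 11.01 CPM in input, a log2 fold change of -1.74 (SE 0.48, edgeR adjusted p = 0.0047). Without mutant animal 9 it was -1.49 (adjusted p = 0.0508), and with a threshold of 20 CPM, which takes wild-type animal 1 out of the group, -1.56 (adjusted p = 0.179). Slc8a1, a sodium-calcium exchanger, was at 55.7 to 136 CPM in IP and 109 to 260 CPM in input, at -0.86 (SE 0.30, edgeR adjusted p = 0.0288). That call was lost without mutant animal 3 (adjusted p = 0.0549), mutant animal 9 (0.0662) or wild-type animal 12 (0.0676), and at the threshold of 20 CPM (0.190). In the animals without cortical mRNA, Kcnc4 and Slc8a1 were also called lower in IP. There Kcnc4 was at -3.74 (SE 0.44, edgeR adjusted p = 5.54e-08) and Slc8a1 at -1.03 (SE 0.24, adjusted p = 0.00111). Slc8a1 was at 31.4 to 53.2 CPM in the inputs of those animals. Kcnj6, a G protein-gated potassium channel, had a value of -1.83 (SE 1.01, adjusted p = 0.164), and -1.73 (adjusted p = 0.0377) with the block.

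The other called genes were Plcxd2, of the phospholipase C family, at -1.65 (SE 0.45, edgeR adjusted p = 0.00716), Car10, a carbonic anhydrase-related protein, at -1.51 (SE 0.43, adjusted p = 0.00784), and Necab3, a calcium-binding protein, at -1.30 (SE 0.48, adjusted p = 0.0373). Mutant animal 9 was the lowest for each of the 3, and its input held 125 CPM of Plcxd2 against 19.1 to 33.9 CPM in the other 3 inputs. Without mutant animal 9, Car10 was at -0.82 (adjusted p = 0.0983) and Necab3 at -1.16 (adjusted p = 0.115). The Necab3 call was also lost without any one of wild types 4, 12, 13 and 20 or mutants 2 and 10, with adjusted p-values from 0.0506 to 0.300. Fitted on the 8 libraries of these animals alone, Plcxd2 (adjusted p = 0.101), Car10 (0.131), Necab3 (0.205) and Slc8a1 (0.135) were not called by edgeR. In the animals without cortical mRNA, Plcxd2 was at -0.50 (edgeR adjusted p = 0.240), Car10 at -0.46 (0.263) and Necab3 at 0.35 (0.460).

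Of the pan-cortical excitatory markers under the level limit of the 38, Slc30a3 and Neurod1 behaved like the low end. Emx1, of the same list, varied between animals. Its log2 IP over input was 2.98 in wild-type animal 1, on 71 IP reads and 1 input read. It was -0.95 in wild-type animal 12, -1.15 in mutant animal 3 and -1.10 in mutant animal 9. Slc30a3, the zinc transporter of glutamatergic vesicles, was at 0.392, 2.01, 0.608 and 0.365 CPM in IP and 1.51, 2.81, 2.50 and 8.36 CPM in input. It was lower in IP by a log2 fold change of -2.44 (SE 0.92, edgeR adjusted p = 0.0361). Neurod1, another basic helix-loop-helix factor, was at -3.10 (SE 1.24, edgeR adjusted p = 0.0487) on 1 to 10 IP reads per animal. The IP of mutant animal 2, in the group without cortical mRNA, held 15 Neurod1 reads and its input 0. Both calls were lost without wild-type animal 1, mutant animal 3 or mutant animal 9, with adjusted p-values from 0.0611 to 0.461, and that of Slc30a3 also without mutant animal 10 (0.0638). At the threshold of 20 CPM both were lost as well, with adjusted p-values of 0.168 for Slc30a3 and 0.114 for Neurod1.

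Hand-written lists of cortical layer markers were then read by IP over input in the same 4 animals. The list for all layers held 10 genes with a median of -0.57, of which 1 was called higher and 2 lower by edgeR. Over all genes, 17.1% were called higher and 22.4% lower. The called higher gene was Kcnv1, a modifier subunit of potassium channels, at 0.68 (SE 0.16, adjusted p = 0.00125). Kcnv1 was also at 52.1 to 67.5 CPM in the IP libraries without cortical mRNA.

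Layer 6b markers had a median of 0.61 over 4 measured genes, from 1.46 (SE 0.85, adjusted p = 0.182) for Nxph4 through Cplx3 and Ccn2 to -1.94 (SE 0.73, edgeR adjusted p = 0.0366) for Moxd1. Moxd1, a monooxygenase, was at 1.33 to 5.63 CPM in the inputs without cortical mRNA too. Nxph4 had 44, 39, 28 and 113 IP reads with cortical mRNA and 1 to 37 in the IP libraries without it, so the groups overlapped. Its 37 reads in wild-type animal 13 came from 29.8 M counts, and the 44 in wild-type animal 1 from 82.4 M. The 4 claustrum and Car3 neuron markers had a median of 0.59, led by Gnb4, a G protein subunit, at 1.14 (SE 0.13, edgeR adjusted p = 4.68e-08), which was at 114 to 132 CPM in IP without cortical mRNA too. Ntng2, a netrin-G found in claustrum, was at -0.68 (SE 0.86, adjusted p = 0.577), below Nr4a2.

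Of the other layer lists, the 4 layer 6 genes that are also made in striatal neurons had a median of 0.93, with Foxp2, Tle4 and Syt6 called higher by edgeR. In the animals without cortical mRNA that list had a median of 0.88, and its summed IP level overlapped between the groups, at 1145 to 1258 CPM with and 1191 to 1543 CPM without. The 6 remaining lists had medians below 0, at -0.64 for layer 2/3, -1.05 for layer 4, -0.82 for intratelencephalic and -0.38 for extratelencephalic layer 5, -1.69 for near-projecting layer 5/6 and -0.54 for corticothalamic layer 6. Many members of these 6 lists were at similar levels in animals without cortical mRNA, and in input edgeR called 0 of 6, 0 of 4, 0 of 4, 2 of 9, 0 of 4 and 3 of 6 higher. DESeq2 called 2, 0, 1, 3, 0 and 4, and at an unadjusted p under 0.05 edgeR had 4, 0, 1, 4, 0 and 4. Over all genes in input, edgeR called 1.66% higher, and the share at the unadjusted p is not given here. The called genes were Fezf2 and Npr3 of layer 5, and Rprm, Hs3st4 and Trbc2 of layer 6. Rorb, the layer 4 nuclear receptor, shows this: its inputs were at 77.2 to 117 CPM without and 68.0 to 230 CPM with cortical mRNA.

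Among these layer genes that rose in input, Fezf2 had an IP over input of -1.19 (SE 0.45, edgeR adjusted p = 0.0361) in the animals with cortical mRNA. Rprm, a cell cycle regulator used as a layer 6 marker, was at -1.16 (SE 0.32, edgeR adjusted p = 0.00539). It rose in input by 1.78 (SE 0.28, edgeR adjusted p = 0.0012), but its IP levels overlapped, at 5.08 to 6.81 CPM with and 2.15 to 6.31 CPM without cortical mRNA. Trbc2, a T cell receptor constant region used as a layer 6 marker, was at -1.62 (SE 0.69, adjusted p = 0.0648).

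**Figure D4:**
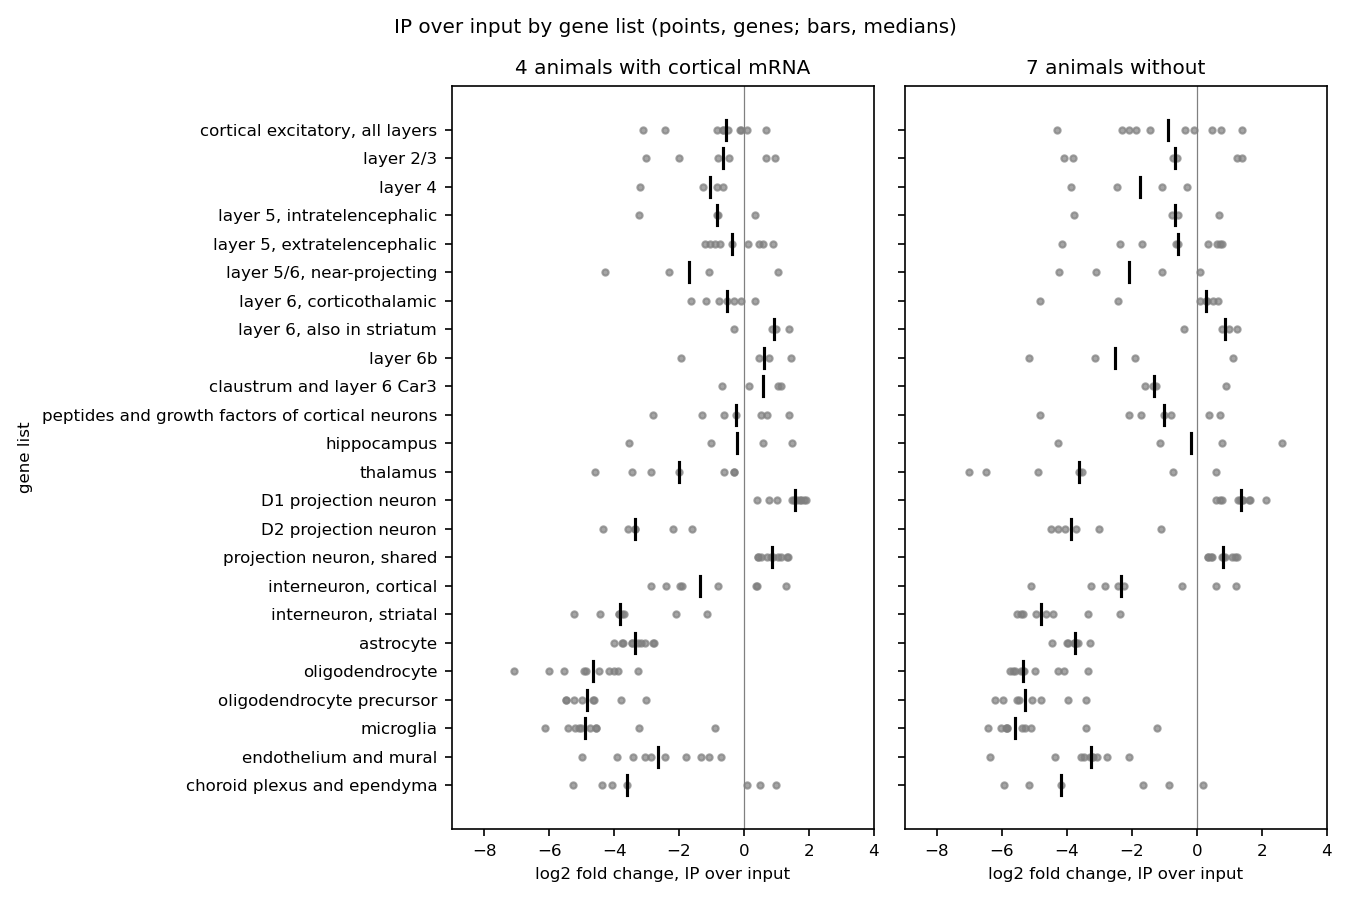
Log2 IP over input for hand-written gene lists in the 4 animals with cortical mRNA (left) and the 7 without (right). Points are genes and bars are list medians. The layer 6b median is 0.61 on the left and -2.51 on the right, while D1 markers are above 0 and D2 and glial lists below 0 in both panels. On the right, layer 6b genes held 0 to 37 IP reads per library, and low IP levels of Slc17a7 chose those animals.

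The layer 6b list did not overlap between the IP libraries of the groups, while in input it did. Its summed level ran from 10.2 to 48.9 CPM in IP with and 0.186 to 1.61 CPM in IP without cortical mRNA, and from 6.63 to 30.9 CPM and 1.68 to 6.91 CPM in the inputs. The IP over input median of the layer 6b list in the animals without cortical mRNA was -2.51, and that of the claustrum list was -1.30. The layer 6b value rests on few reads, 0 to 37 per gene in each of those IP libraries. Low IP levels of Slc17a7 chose those animals, so both medians are descriptions. The peptides and growth factors of cortical neurons had medians of -0.25 with and -1.02 without cortical mRNA.

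Markers of other brain regions were looked at in the same libraries. Slc17a6, the glutamate transporter VGLUT2 of thalamic and some cortical neurons, had 0 reads in each of the 7 IP libraries without cortical mRNA and 158, 23, 30 and 90 reads in the 4 with it, or 1.67, 2.10, 1.30 and 3.29 CPM. In input it rose by 2.85 (SE 0.60, edgeR adjusted p = 0.0147). edgeR called 0 of the other 6 thalamic markers in input. Of all 7, DESeq2 called 1 higher and 2 were higher at an unadjusted p under 0.05. By comparison, edgeR called 1.66% of all genes in input higher and 0.0587% lower. The share at the unadjusted p is not given here. In IP the summed thalamic list did not overlap between groups, at 7.03 to 13.2 CPM with and 2.90 to 5.59 CPM without cortical mRNA, and in input it did, at 24.9 to 29.6 CPM and 16.3 to 26.0 CPM. Besides Slc17a6, Prkcd, a protein kinase C, was higher in IP without overlap, with 308 reads in wild-type animal 1, 12 in wild-type animal 12, 46 in mutant animal 3 and 15 in mutant animal 9, or 0.548 to 3.26 CPM, against at most 0.374 CPM in the others. Gbx2 had 3 reads in the IP of wild-type animal 1 and 0 in the other 10 IP libraries. The part of thalamic mRNA in the IP differences was not tested. The 4 measured hippocampal markers had 0 calls in input by edgeR, DESeq2 or at an unadjusted p under 0.05, and their median input change was -0.17 against -0.01 for all genes. At the edgeR shares given above, 0 calls among 4 markers say little about hippocampal tissue. Prox1, a transcription factor of dentate granule cells, was at 27.3 to 43.4 CPM in the inputs with cortical mRNA and 35.3 to 58.5 CPM in those without it, and the groups overlapped.

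Of 69 interneuron, glial, vascular and choroid plexus markers tested in input, edgeR called 0, DESeq2 called 1 higher and 2 lower, and 4 were higher and 5 lower at an unadjusted p under 0.05. Over all genes, edgeR called 1.66% higher and 0.0587% lower, and the share at the unadjusted p is not given here. The median input change was 0.46 over 7 cortical interneuron markers and 0.04 over 8 striatal interneuron markers, and between -0.18 and 0.01 over the astrocyte, oligodendrocyte, precursor, microglia and vascular lists, and it was -0.71 over 6 choroid plexus and ependymal markers. In IP the median change was 1.41 over 6 tested cortical interneuron markers and 1.11 over 8 striatal ones, against -0.01 for all genes, with 0 of either list non-overlapping. The summed striatal interneuron list was at 18.9 to 42.9 CPM in IP with and 14.4 to 22.3 CPM without cortical mRNA, and the cortical one at 237 to 302 CPM and 227 to 405 CPM, so both overlapped. The summed astrocyte list did not overlap between groups in IP, at 303 to 503 CPM with and 149 to 230 CPM without cortical mRNA, and in input it did, at 2497 to 3566 CPM and 2503 to 3368 CPM. Most of that sum was Slc1a2, the glutamate transporter GLT-1. It was at 224, 319, 322 and 416 CPM in the IP libraries with cortical mRNA, against 109 to 176 CPM in the others, while its input change was 0.13 (edgeR adjusted p = 0.797). The part of astrocyte or interneuron mRNA in the IP differences was not tested. The summed oligodendrocyte list overlapped in IP, at 155 to 254 CPM with and 162 to 225 CPM without cortical mRNA.

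Of 26 striatal markers tested in input, edgeR called 0 and DESeq2 called 3 lower, while at an unadjusted p under 0.05, 17 were lower and 1 was higher. Over all genes in input, DESeq2 called 406 higher and 62 lower. The share of all genes at that unadjusted p is not given here, so the 17 cannot be set against it. Over the 10 D1 markers the median log2 fold change of animals with over without cortical mRNA was -0.11 in IP and -0.27 in input, and over the 10 markers shared by both classes of projection neuron it was -0.16 and -0.29, against -0.01 for all genes in each assay. The summed D1 level in input was 723 to 984 CPM with and 1018 to 1267 CPM without cortical mRNA, without overlap, and in IP 2167 to 2449 CPM and 2402 to 2735 CPM. Pde10a, the striatal phosphodiesterase, was at 3888 to 4608 CPM in IP with and 4656 to 5654 CPM without cortical mRNA, a log2 fold change of -0.17 (SE 0.06).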

How the data were processed

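Per the submitters' processing notes, reads were aligned with STAR and counted with featureCounts on mm10, and DESeq2 was also used. Versions are not given in the sources used here. The authors deposited raw read counts per gene symbol for 11 IP and 11 input libraries, whose kit is not strand-specific, per the labels' protocols. All 55341 symbols were found in GENCODE vM21, which gave positions and exon overlaps. The authors' deposited comparisons of genotype, which hold log2 fold changes and p-values per the file headers, were not used.

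IP libraries were divided at 10 CPM of Slc17a7. Animals with and without cortical mRNA were compared in IP (description only) and in input, with genotype as covariate. IP over input was fitted over all 22 libraries with 4 cells of assay by cortical mRNA and genotype per assay. Fits ran in edgeR 4.0.16 (R 4.3.3). They used TMM, filterByExpr and the robust quasi-likelihood test, and p-values were adjusted by Benjamini-Hochberg over every gene tested, with a threshold of 0.05. Counts at an unadjusted p have no share over all genes beside them and are descriptions. Log2 values of single animals used a prior count of 2. The code was tested on simulated data. The members and the 24 gene lists (178 of 181 genes found), written by hand, were chosen with earlier results of these data known.

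Named genes were Slc17a7, Tbr1, Drd1, Fmr1, list members, the 15 largest IP differences per direction without overlap at a mean of at least 5 CPM, and the 15 highest and 15 lowest IP over input among the cortical genes set by input. Predicted genes were counted only, and some named genes are not reported here. IP and input with the same number come from the same lysate. Deviations from the group means correlated at r = 0.154 to 0.487 over 8300 genes in the same-numbered pairs, and 11 of 11 IP libraries matched their own input best, so the animal was a block in an alternative fit. Depth was 9.38 to 82.4 M (1e6) counts, so 1 read is worth less than 1 CPM in every library. Other alternatives were scaling, filters, DESeq2 1.42.0, thresholds and leaving out each animal.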

Additional observations from a re-analysis of the deposited data

Results flagged for a closer look

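Of 46 groups of 4 to 10 values examined, 2 held a sample far from the others by Dixon's criterion, and chance gives about 1 in 20. In log2 IP over input of Rai14, mutant animal 9 was at -0.67 and the other 3 animals with cortical mRNA were at 0.35 to 0.51, a gap of 0.868 of the range. In Slc17a7 of the IP libraries without cortical mRNA, wild-type animal 13 stood highest, at 1.48 CPM of the library total, with a gap of 0.656 of the range.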

How the results depend on the processing

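The animal number pairs IP and input. With the replicate block, cortical genes set by input that were lower in IP numbered 15 in place of 6, those higher 2 in place of 0, and Tbr1 turned to 0.027 (adjusted p = 0.928). Calls of IP against input came to 7641 with and 10355 without cortical mRNA. Without a filter on low counts, input calls numbered 658 (532 higher, 126 lower) against 292, cortical genes lower in IP 16 and higher 1. DESeq2 gave 468 input calls (406 higher, 62 lower). At a threshold of 20 CPM, which moves wild-type animal 1 at 19.9 CPM, 3 were lower in IP, and a threshold of 5 CPM changed no group. Requiring an input log2 fold change of at least 1 gave 94 cortical genes with 36 lower in IP, and of at least 3 gave 22 with 1 lower. Leaving out each animal in turn gave 225 to 346 IP genes (346 without wild-type animal 1), 134 to 435 input calls, 25 (without mutant animal 9) to 60 (without wild-type animal 1) cortical genes, of which 1 (without mutant animal 9), 3 (without wild-type animal 12) to 10 (without wild-type animal 1) were lower in IP and 0 higher. It gave 5911 to 7276 calls of IP against input with cortical mRNA and 8995 to 10253 without. Log2 IP over input then ran from -0.24 to 0.15 for Nptx1, -0.24 to 0.29 for Tbr1 and -0.75 to 0.11 for Neurod6, each highest and above 0 without mutant animal 9. For Rai14 it ran from -0.10 (without wild-type animal 12) to 0.42 (without mutant animal 9), with -0.03 without mutant animal 3. The cause was not tested. Of values of named genes in IP over input, 583 kept their call and direction, 28 gained a call and 27 lost one. Below about 1 CPM, single reads decide a level.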
